A study of Homo sapiens with 15 samples.

Results

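The genes described here encode the enzymes and carriers of glycolysis, the pentose phosphate pathway and the shuttles that pass cytosolic NADH to mitochondria. The rule lists 42 genes by name and takes those with a row in the deposited tables. Of the 42, 41 had a row among the 17769 genes of the knockout table, where PDK3 had none, and 42 had a row among the 60510 genes of the resistance table. All of these passed the filter on low values.

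RNA-seq was carried out on K562, an established cell line from a chronic myeloid leukemia that carries BCR-ABL1, to ask how loss of either cytosolic HSP90 isoform, or acquired resistance to an HSP90 inhibitor, alters the transcriptome. The knockout table holds 3 libraries each of empty vector control cells (EV, wild type genotype), HSP90α-KO cells and HSP90β-KO cells, none of them treated with a drug. Per the labels, Cas9 and a guide RNA came in by lentivirus, the cells were sorted on a fluorescent marker and clones were grown from single cells (EV cells carry the empty vector), so that a knockout and the clone that carries it cannot be told apart. The resistance table holds 3 libraries of wild type K562 cells kept long term in DMSO (parental) and 3 of cells kept long term in PU-H71, an inhibitor of the N-terminal ATP pocket of HSP90 (PUHr). These cells were also selected as clones under rising amounts, so that resistance and clone cannot be told apart either. The labels do not say that replicates came from separate cultures, and p-values measure only the spread between these libraries.

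Each library held between 19594381 and 26216730 reads on genes. HSP90AA1, the gene of HSP90α, stood at 704 ± 18.7 CPM (read counts scaled to library size, SD, n = 3) in EV and 90.4 ± 2.34 CPM in HSP90α-KO cells. HSP90AB1, the gene of HSP90β, stood at 2806 ± 21.2 CPM in EV and 1912 ± 25.2 CPM in HSP90β-KO cells, so its transcript was still present. The summed level of the K562 markers was 1007 to 1017 CPM in EV, 916 to 942 CPM in HSP90α-KO, 902 to 917 CPM in HSP90β-KO, 2737 to 2763 CPM in parental and 2013 to 2060 CPM in PUHr libraries. Markers of T and B cells summed to 13.8 to 16.1 CPM in EV, 8.59 to 10.4 CPM in HSP90α-KO, 22.6 to 25.4 CPM in HSP90β-KO, 14.1 to 14.6 CPM in parental and 10.1 to 10.8 CPM in PUHr libraries, without overlap between groups of a table. Those of monocytes summed to 158 to 161 CPM in EV and HSP90α-KO, 118 to 121 CPM in HSP90β-KO, 54.2 to 56.0 CPM in parental and 41.6 to 44.7 CPM in PUHr libraries, carried by ITGAM and LYZ, with CD14, CSF1R and CD68 without a row in the knockout table and at most 0.623 CPM in the other. Fibroblast and epithelial markers summed to 245 to 262 CPM in the knockout table, 312 to 327 CPM in parental and 363 to 393 CPM in PUHr libraries, carried by KRT18 and EPCAM. Their part in the results was not tested. The tables were normalized separately, and tests were made only within a table. The members with a row (41 among the knockouts, 42 in the resistance data) took 0.921% to 0.944% of the reads in EV, 0.935% to 0.976% in HSP90α-KO, 1.01% in each of the 3 HSP90β-KO, 1.39% to 1.41% in parental and 1.22% to 1.28% in PUHr libraries, and mitochondrial transcripts took 13.1% to 13.7%, 11.3% to 12.4%, 12.4% to 12.7%, 9.47% to 9.54% and 8.67% to 8.95% in the same order. In bulk RNA a lower value can mean fewer expressing cells or less RNA per cell, which cannot be told apart.

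Glycolysis splits glucose into pyruvate in the cytosol, spending ATP in its first steps and regaining more in the later ones. The pentose phosphate pathway branches off at glucose 6-phosphate and yields NADPH and ribose, and the glycerophosphate and malate-aspartate shuttles carry the electrons of cytosolic NADH into mitochondria. Several steps are catalysed by isozymes from separate genes, which differ in their tissues and their regulation, and leukemia cells are known for high glucose use.

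Fold changes are given on the log2 scale of the deposited log2 CPM, with the standard error, and adjusted p-values come from limma with Benjamini-Hochberg adjustment over the 17039 genes tested among the knockouts and the 16503 tested in the resistance data. A gene is called higher or lower at an adjusted p under 0.05 and changed when its log2 fold change is also beyond 1. In HSP90α-KO against EV, 20 of 41 members were higher, 7 were lower and 14 did not pass, where 27.5% of all genes were higher and 26.6% were lower. One member, GPD1L, was changed upward and 0 downward, beside 5.32% and 5.01% of all genes. In HSP90β-KO against EV, 14 of 41 were higher, 10 were lower and 17 did not pass, beside 17.2% higher and 17.2% lower among all genes. One member, GPD2, was changed downward and 0 upward, beside 2.65% and 1.83% of all genes. In PUHr against parental cells, 7 of 42 were higher, 24 were lower and 11 did not pass, beside 25.6% and 25.8% of all genes. One member, PDK3, was changed upward and 3, PKLR, PFKFB2 and GPD1, were changed downward, beside 5.37% and 4.69% of all genes. The median log2 fold change of the members was 0.08 in HSP90α-KO, 0.04 in HSP90β-KO and -0.11 in PUHr cells, and that of all genes was -0.01, 0.00 and 0.00. Most members thus moved by small steps, and few moved by more than a doubling. The 2 knockout comparisons share the EV libraries.

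**Figure D1:**
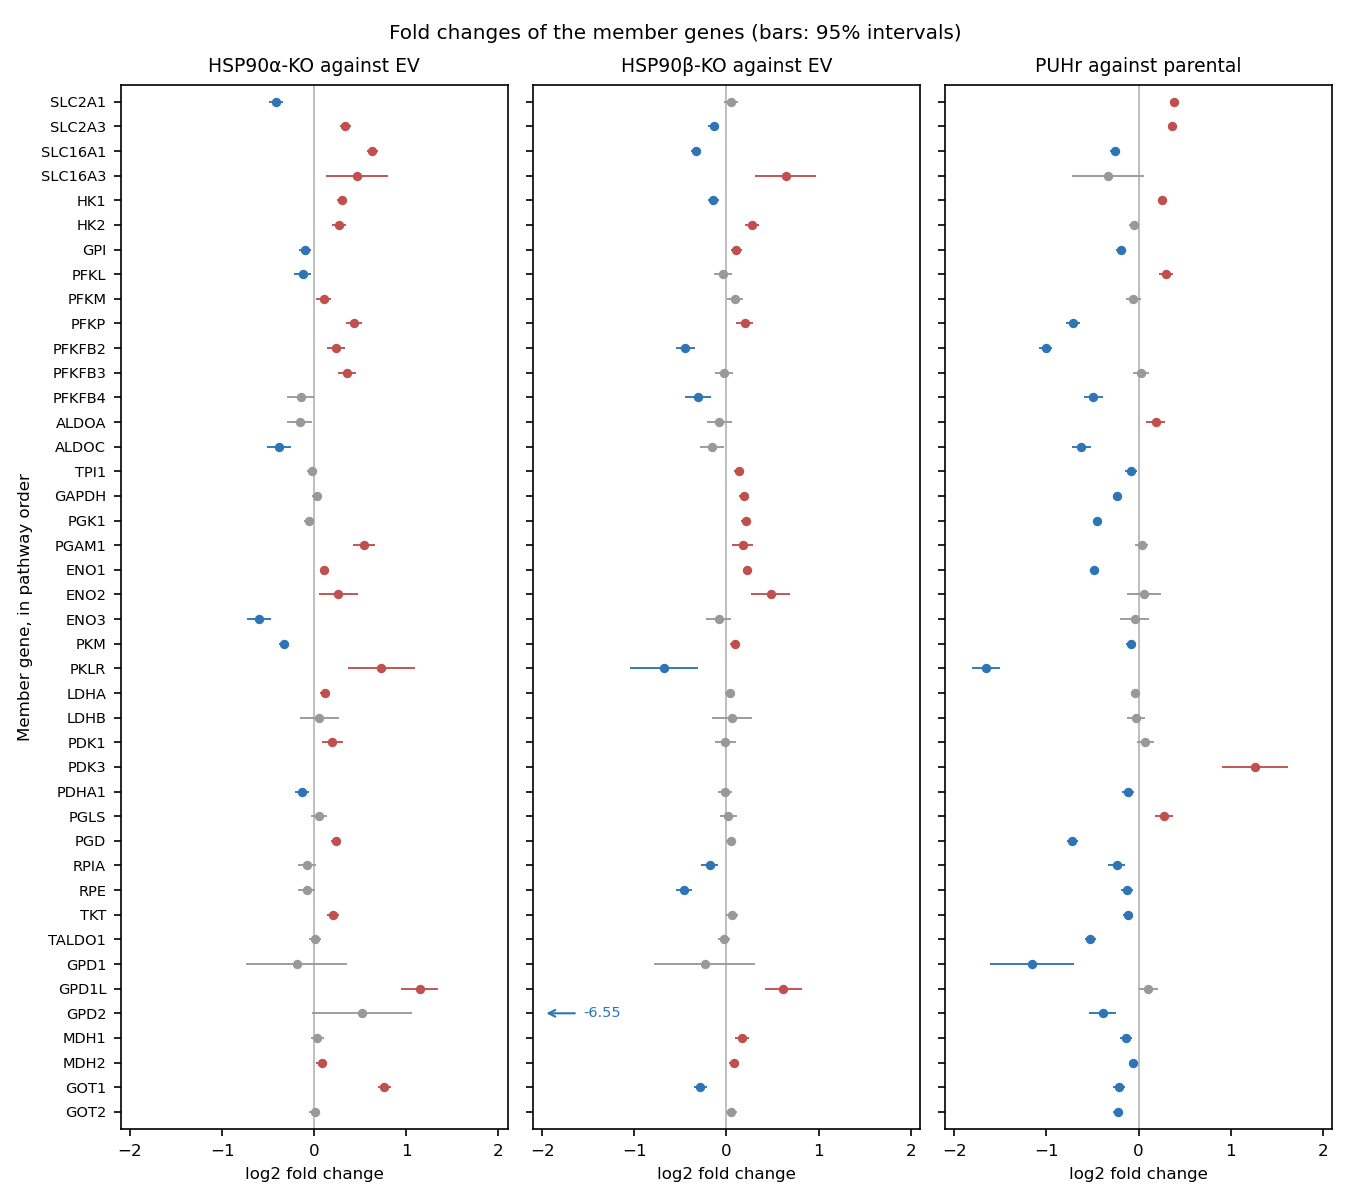
Log2 fold changes of the 42 genes in pathway order (vertical axis), 1 panel per comparison, as points with 95% intervals. Red and blue points are higher and lower at an adjusted p under 0.05 and grey points are not. GPD2 in HSP90β-KO cells lies beyond the axis at -6.55, and 24 points are blue in PUHr cells.

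The sequences upstream of GPD2 and PKLR are shown because GPD2 had the lowest fold change of all members in any comparison and PKLR was the member called with an absolute fold change above 0.5 in each comparison. RefSeq lists a pair of start sites for either gene, and the 250 bases before each are given on the strand of the gene, from GRCh38.p14. GPD2 lies on chromosome 2 on the plus strand (ENSG00000115159, chr2:156435290-156613735), and the windows are chr2:156435302-156435551 and chr2:156436129-156436378. PKLR lies on chromosome 1 on the minus strand (ENSG00000143627, chr1:155289293-155301438), and the windows are chr1:155301439-155301688 and chr1:155300953-155301202. The upstream start of PKLR gives the red cell form of pyruvate kinase and the downstream start the liver form. Capitals mark matches on either strand to AGATAA, the core bound by GATA factors, to CACCC, a box bound by Krüppel-like factors, and to ACGTG, the core of the hypoxia response element, which overlaps the E-box.
GPD2 start 1: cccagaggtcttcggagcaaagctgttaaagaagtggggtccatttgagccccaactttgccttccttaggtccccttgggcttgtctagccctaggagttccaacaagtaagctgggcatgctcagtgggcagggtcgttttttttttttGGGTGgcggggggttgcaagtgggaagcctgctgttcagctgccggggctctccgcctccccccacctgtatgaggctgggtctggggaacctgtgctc
GPD2 start 2: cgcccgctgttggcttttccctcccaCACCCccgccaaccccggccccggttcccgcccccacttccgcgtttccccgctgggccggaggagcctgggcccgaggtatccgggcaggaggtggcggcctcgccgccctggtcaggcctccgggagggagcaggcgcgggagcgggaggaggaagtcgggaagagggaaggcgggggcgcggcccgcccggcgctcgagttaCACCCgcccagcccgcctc
PKLR start 1: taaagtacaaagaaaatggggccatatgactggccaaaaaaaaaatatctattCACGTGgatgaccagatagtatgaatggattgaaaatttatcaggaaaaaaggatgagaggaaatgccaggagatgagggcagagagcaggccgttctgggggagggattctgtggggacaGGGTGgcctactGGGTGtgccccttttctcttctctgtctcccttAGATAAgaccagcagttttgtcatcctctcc
PKLR start 2: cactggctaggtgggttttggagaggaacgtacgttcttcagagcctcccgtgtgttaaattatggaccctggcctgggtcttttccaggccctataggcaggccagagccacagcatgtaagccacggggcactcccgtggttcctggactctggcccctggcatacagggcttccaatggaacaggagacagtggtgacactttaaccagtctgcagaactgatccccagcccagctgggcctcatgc

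The window before PKLR start 1 held 1 match to AGATAA, 2 to CACCC and 2 to ACGTG, the last as an overlapping pair on the 2 strands, and that before start 2 held 0 of each. The windows before GPD2 held 1 and 2 matches to CACCC and 0 to the other motifs. Their GC content was 58% before start 1 and 76.8% before start 2 of GPD2, with 5 and 29 CpG, beside medians of 58% and 11 over all promoters. Of 35116 promoter windows of this length, 9.17% held AGATAA, 54.7% held CACCC and 18.5% held ACGTG. For the members, 38 of 42 matched the promoter table with 68 windows, of which 7.35% held AGATAA, 64.7% held CACCC and 32.4% held ACGTG. The motifs were chosen after values of these data had been seen, and a match describes letters only.

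The carriers that bring glucose in and let lactate out moved in different directions. SLC2A1 and SLC2A3 encode the glucose transporters GLUT1 and GLUT3. In HSP90α-KO cells SLC2A1 was lower (-0.41 ± 0.04, adjusted p = 1.5e-09) and SLC2A3 higher (0.34 ± 0.03, adjusted p = 8.0e-10), and in PUHr cells both were higher, by 0.39 ± 0.03 and 0.36 ± 0.02. The share of SLC2A1 among the reads of both genes was 36.2% to 38.2% in EV and 24.4% to 27.2% in HSP90α-KO libraries, without overlap. In HSP90β-KO cells SLC2A1 differed by 0.05 and did not pass, and SLC2A3 was lower by -0.14.

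SLC16A1 encodes MCT1, a carrier of lactate and pyruvate across the plasma membrane. It stood at 259, 248 and 257 CPM in the EV libraries, at 387, 390 and 407 CPM in HSP90α-KO and at 201.1, 206.6 and 200.5 CPM in HSP90β-KO. All HSP90α-KO libraries lay above EV and all HSP90β-KO libraries below it, and the log2 fold changes were 0.63 ± 0.03 (adjusted p = 9.2e-16) and -0.33 ± 0.03 (adjusted p = 1.4e-09). Tested directly, HSP90α-KO lay above HSP90β-KO by 0.96 ± 0.03 (adjusted p = 6.4e-20). In PUHr cells SLC16A1 was lower by -0.26. SLC16A3, the gene of the lactate exporter MCT4, was at low level: 1.62, 1.69 and 1.68 CPM in EV, 2.53, 2.60 and 2.81 CPM in HSP90β-KO, and 2.78, 1.86 and 2.41 CPM in HSP90α-KO libraries. These values rest on 34 to 71 reads a library. Both knockouts lay above EV, by 0.64 ± 0.17 (adjusted p = 0.0040) in HSP90β-KO and by 0.46 ± 0.17 (adjusted p = 0.023) in HSP90α-KO, and the latter call was lost without EV replicate 1 (0.45, adjusted p = 0.055), HSP90α-KO replicate 1 (0.34, adjusted p = 0.13) or HSP90α-KO replicate 3 (0.44, adjusted p = 0.058). It did not pass in PUHr cells (-0.33, adjusted p = 0.18).

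Hexokinases trap glucose as glucose 6-phosphate. HK1, the broadly expressed form, was higher in HSP90α-KO (0.30) and PUHr (0.25) and lower in HSP90β-KO cells (-0.14). HK2, the inducible form, was higher in both knockouts (0.27 and 0.28, direct contrast -0.01, adjusted p = 0.84) and did not pass in PUHr cells (-0.05). GPI, which isomerises the product to fructose 6-phosphate, differed by -0.10, 0.11 and -0.19 in the 3 comparisons and passed in each. The call of GPI in HSP90β-KO was lost without EV replicate 3 (0.10, adjusted p = 0.052) and with median centring (0.11), and in both knockouts without the intensity trend (adjusted p = 0.059 in HSP90α-KO and 0.073 in HSP90β-KO cells).

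Phosphofructokinase commits sugar to glycolysis and is built from liver (PFKL), muscle (PFKM) and platelet (PFKP) subunits. PFKP stood at 73.0, 71.7 and 70.5 CPM in parental and at 41.5, 44.8 and 44.9 CPM in PUHr libraries. The groups did not overlap, with a log2 fold change of -0.71 ± 0.04 (adjusted p = 1.5e-09). PFKL was higher in the same cells by 0.30 ± 0.04 and PFKM did not pass (-0.06), so that PFKP made up 22.6% to 23.2% of the reads on the 3 subunits in parental and 13.5% to 13.8% in PUHr libraries. In HSP90α-KO cells PFKP was higher by 0.43 ± 0.05 and its share was 23.2% to 23.9%, against 17.8% to 17.9% in EV. PFKP was also higher in HSP90β-KO cells, by 0.20 ± 0.05, with PFKL at -0.04 and PFKM at 0.09, neither called. PFKL (-0.12) and PFKM (0.10, adjusted p = 0.0498) were called in HSP90α-KO cells. Both calls were lost without EV replicate 3 (adjusted p = 0.060 and 0.28) and without HSP90α-KO replicate 3 (0.30 and 0.11). The call of PFKL was also lost without EV replicate 2 (0.25), and that of PFKM without HSP90α-KO replicate 2 (0.15) or any 1 of the 3 HSP90β-KO libraries (0.055 to 0.062). Both were lost without the intensity trend (0.22 and 0.12) or with only the 6 libraries compared (0.054 and 0.075), and that of PFKM also under quantile normalization (0.13), with median centring, without the filter on low values (0.051) and with the replicate block (0.057).

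The PFKFB enzymes make and degrade fructose 2,6-bisphosphate, the strongest activator of phosphofructokinase. PFKFB2 (ENSG00000123836, chr1:207034366-207081024) stood at 68.1, 67.0 and 66.9 CPM in parental and at 34.0, 33.5 and 32.8 CPM in PUHr libraries. All PUHr libraries lay near 50.4% below the parental mean, with a log2 fold change of -1.01 ± 0.04 (adjusted p = 1.3e-11), just past the limit of 1 for a changed gene, and -0.996 without PUHr replicate 3. PFKFB4 was lower in PUHr cells by -0.49 ± 0.05 and PFKFB3 did not pass (0.03). In HSP90α-KO cells PFKFB2 (0.24) and PFKFB3 (0.36) were higher and PFKFB4 did not pass (-0.15). It was called lower without EV replicate 3 (-0.23, adjusted p = 0.014) or HSP90α-KO replicate 1 (-0.20, adjusted p = 0.033). In HSP90β-KO cells PFKFB2 (-0.45) and PFKFB4 (-0.31) were lower and PFKFB3 did not pass (-0.03). Genes within 5 Mb of PFKFB2 had a median of -0.20 in HSP90β-KO cells and 0.05 in PUHr cells.

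**Figure D2:**
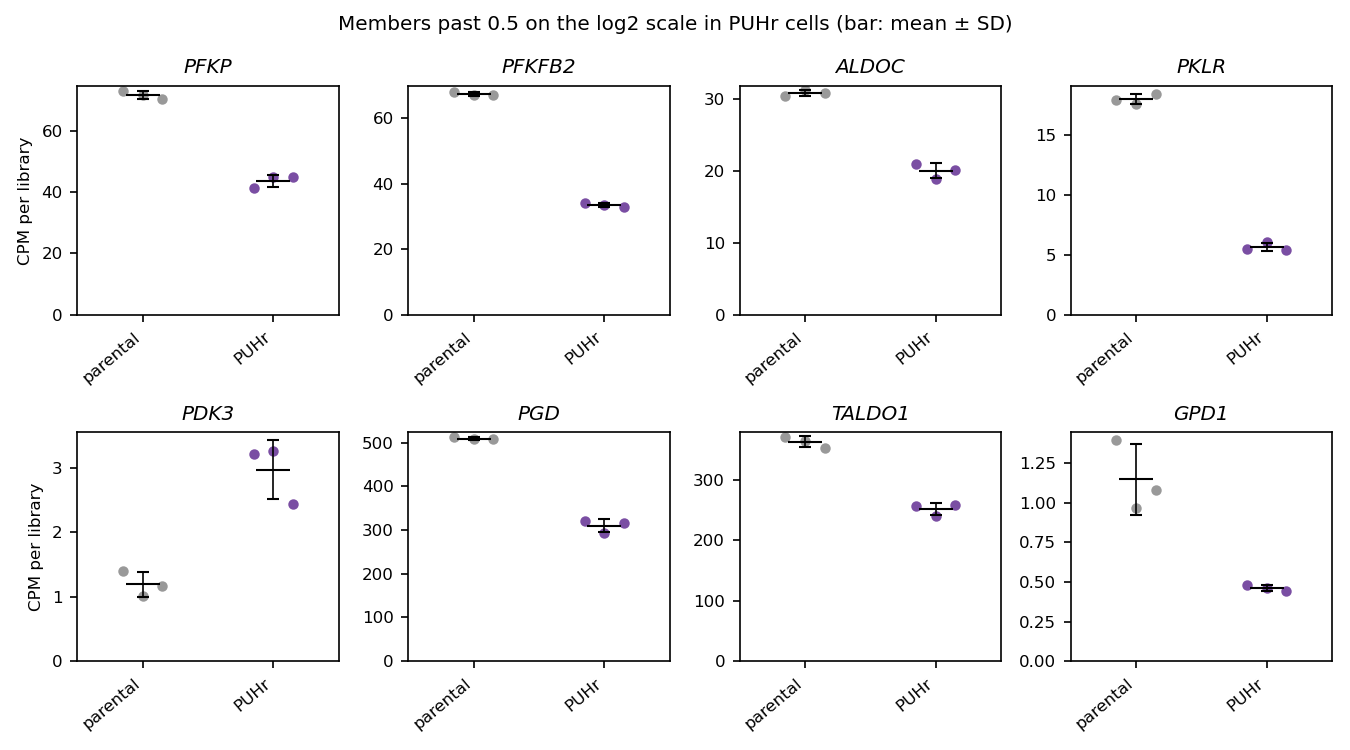
CPM of the 8 members called with a fold change beyond 0.5 on the log2 scale in PUHr cells, 1 point per library, with the mean and SD of 3 libraries as a bar, each panel on its own scale from 0. PUHr libraries lie below the parental libraries in 7 panels and above them for PDK3.

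Aldolase splits fructose 1,6-bisphosphate and triosephosphate isomerase (TPI1) interconverts the products. ALDOC, the brain form, stood at 30.5, 31.2 and 30.9 CPM in parental and 21.1, 18.9 and 20.2 CPM in PUHr libraries, which did not overlap (-0.62 ± 0.05, adjusted p = 1.5e-07). ALDOA, the muscle form, was higher there by 0.18 ± 0.05, a call lost without the filter on low values (adjusted p = 0.15). The share of ALDOC among the reads of both aldolases was 48.1% to 49.4% in parental and 32.7% to 37.8% in PUHr libraries. In HSP90α-KO cells ALDOC was lower by -0.38 ± 0.07 and ALDOA did not pass (-0.16, adjusted p = 0.052), though it was called under 7 of 19 alternatives. Among these were the fits without EV replicate 1 (-0.23, adjusted p = 0.0086) or HSP90α-KO replicate 1 (-0.21, adjusted p = 0.015) or 2 (-0.21, adjusted p = 0.029). In HSP90β-KO cells neither aldolase passed (ALDOC -0.16, ALDOA -0.08), but ALDOC was called under 5 of 19 alternatives. Among these were the fit of only the 6 libraries compared (adjusted p = 0.041) and that without the third HSP90α-KO library (0.048), since the spread is shared. The levels of ALDOA are uncertain, since 42.8% of its exon bases are shared with ENSG00000285043 on the same strand, which was itself listed at 0.938 to 2.25 CPM. TPI1 was higher in HSP90β-KO cells (0.14) and did not pass in HSP90α-KO cells (-0.02). In HSP90α-KO cells it stood at -0.10 under quantile normalization and was called under 1 of 19 alternatives. TPI1 was lower in PUHr cells (-0.09, adjusted p = 0.040), a call lost without any 1 of the parental libraries or without PUHr replicate 2 (adjusted p = 0.063 to 0.17), without the filter on low values (0.55) or the intensity trend (0.23), or under quantile normalization (0.37).

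The later steps regain ATP. Per kilobase of exon, ENO1 (373 ± 8.12 CPM per kb) and GAPDH (319 ± 3.85 CPM per kb) were the 2 highest members in EV cells, and GAPDH (675 ± 8.67) and ENO1 (651 ± 8.54) in parental cells, while GPD1 (0.197 ± 0.0717) and SLC16A3 (0.180 ± 0.00413) were the lowest in EV and did not differ beyond their spread. GAPDH, which makes 1,3-bisphosphoglycerate, and PGK1, which passes its phosphate to ADP, did not pass in HSP90α-KO cells (0.03 and -0.06). PGK1 stood there at -0.15 under quantile normalization and was called under 1 of 19 alternatives. GAPDH and PGK1 were higher in HSP90β-KO (0.19 and 0.21) and lower in PUHr cells (-0.23 and -0.45). The call of GAPDH in PUHr cells was lost under quantile normalization, which gave -0.00123. GAPDH has 65 named pseudogenes, so its counts may be split.

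Enolase makes phosphoenolpyruvate. ENO1, the common form, was higher in HSP90β-KO cells (0.23) and in HSP90α-KO cells (0.11), the latter at 0.00872 and not called under quantile normalization (adjusted p = 0.68). It stood at 3447, 3366 and 3375 CPM in parental and 2488, 2329 and 2474 CPM in PUHr libraries, without overlap (-0.48 ± 0.02, adjusted p = 4.4e-10), but at a difference of 0.00 under quantile normalization. That method gives equal values to genes of equal rank, so an exact 0 under it cannot size the difference. Genes within 5 Mb of ENO1 had a median of -0.44 in the same comparison (79 genes). ENO2, the neuronal form, was higher in HSP90α-KO (0.26) and HSP90β-KO cells (0.48) and did not pass in PUHr cells (0.06). Its call in HSP90α-KO cells was lost without EV replicate 1 (adjusted p = 0.065) or 2 (0.20), or HSP90α-KO replicate 1 (0.10) or 2 (0.074), with only the 6 libraries compared (0.059), with voom (0.061) and with the replicate block (0.051). ENO3, the muscle form, stood at 21.5, 23.9 and 21.9 CPM in EV and 15.3, 15.6 and 13.4 CPM in HSP90α-KO libraries, which lay below all EV libraries (-0.60 ± 0.07, adjusted p = 3.4e-08). It did not pass in HSP90β-KO (-0.08) or PUHr cells (-0.04).

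PGAM1, phosphoglycerate mutase, stood at 29.0, 34.4 and 31.4 CPM in EV and at 49.5, 45.7 and 42.4 CPM in HSP90α-KO libraries. The groups did not overlap, and the log2 fold change was 0.54 ± 0.06 (adjusted p = 2.4e-08). The 95 tested genes within 5 Mb of PGAM1 on chromosome 10 had a median of 0.58 in that comparison. In HSP90β-KO cells PGAM1 was higher by 0.18 with overlapping groups, a call lost without EV replicate 1 (adjusted p = 0.17) or 3 (0.070), or HSP90β-KO replicate 1 (0.062) or 3 (0.12), under quantile normalization (0.053), with median centring (0.078) or without the intensity trend (0.15). In PUHr cells it did not pass (0.03). PGAM1 has 13 named pseudogenes.

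Pyruvate kinase ends the pathway. PKM, the form of most tissues, was lower in HSP90α-KO cells by -0.33 ± 0.03 (adjusted p = 8.4e-11) and higher in HSP90β-KO cells by 0.09, a call lost without EV replicate 1 (adjusted p = 0.053) or 3 (0.052), or HSP90β-KO replicate 3 (0.052), with median centring (0.18) or without the intensity trend (0.098). In PUHr cells PKM was lower by -0.09 but 0.12 higher under quantile normalization, and not called without the filter on low values (adjusted p = 0.22) or the intensity trend (0.12). PKLR, the liver and red cell form, stood at 17.8, 17.6 and 18.4 CPM in parental and at 5.46, 6.02 and 5.38 CPM in PUHr libraries. Every PUHr library lay below every parental one, with a log2 fold change of -1.66 ± 0.08 (adjusted p = 2.0e-10), and the mean fell by 68.65%. In the knockout table PKLR was at 2.00, 1.74 and 1.60 CPM in EV, 2.59, 3.06 and 3.39 CPM in HSP90α-KO and 1.14, 1.24 and 0.871 CPM in HSP90β-KO libraries, or 22 to 66 reads a library. HSP90α-KO lay above EV (0.73 ± 0.19, adjusted p = 0.0018) and HSP90β-KO below it (-0.68 ± 0.19, adjusted p = 0.0057), and the difference between the knockouts, tested directly, was 1.41 ± 0.19 (adjusted p = 3.2e-07). PKLR was the minor form throughout, with 1.53% to 1.60% of the reads on both genes in parental, 0.493% to 0.581% in PUHr and 0.101% to 0.545% in the libraries of the knockout table. Of its exon bases, 17.6% are shared with a gene on the other strand. That part is 23.8% for RPE, 19.3% for PDHA1, 17.6% for GAPDH and 13.6% for ALDOA. The libraries were stranded, but whether reads were counted by strand is not given in the sources used here.

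Lactate dehydrogenase interconverts pyruvate and lactate. LDHA, the muscle form, was higher in HSP90α-KO cells (0.12, but 0.05 and not called under quantile normalization, adjusted p = 0.059) and did not pass in HSP90β-KO (0.04) or PUHr cells (-0.04, but 0.15 under quantile normalization). LDHB, the heart form, did not pass in any comparison (0.06, 0.06 and -0.03), and 33.4% of its exon bases are shared with another gene on the same strand. The PDK kinases switch off pyruvate dehydrogenase, whose alpha subunit is PDHA1, and so hold pyruvate back from mitochondria. PDK3 (ENSG00000067992, chrX:24465244-24550466) stood at 1.40, 1.01 and 1.17 CPM in parental and at 3.21, 3.26 and 2.45 CPM in PUHr libraries, which rest on 24 to 33 and 55 to 80 reads. The groups did not overlap, with a log2 fold change of 1.26 ± 0.18 (adjusted p = 3.9e-05), and the genes within 5 Mb had a median of 0.00. PDK1 was higher in HSP90α-KO cells (0.19, adjusted p = 0.053 without the intensity trend) and did not pass in HSP90β-KO (-0.01) or PUHr cells (0.07). PDHA1 was lower in HSP90α-KO (-0.14) and PUHr cells (-0.11), where the genes within 5 Mb had medians of 0.49 and 0.31, and did not pass in HSP90β-KO cells (-0.02). Its call in PUHr cells was lost without the filter on low values (adjusted p = 0.078) or the intensity trend (0.055).

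**Figure D3:**
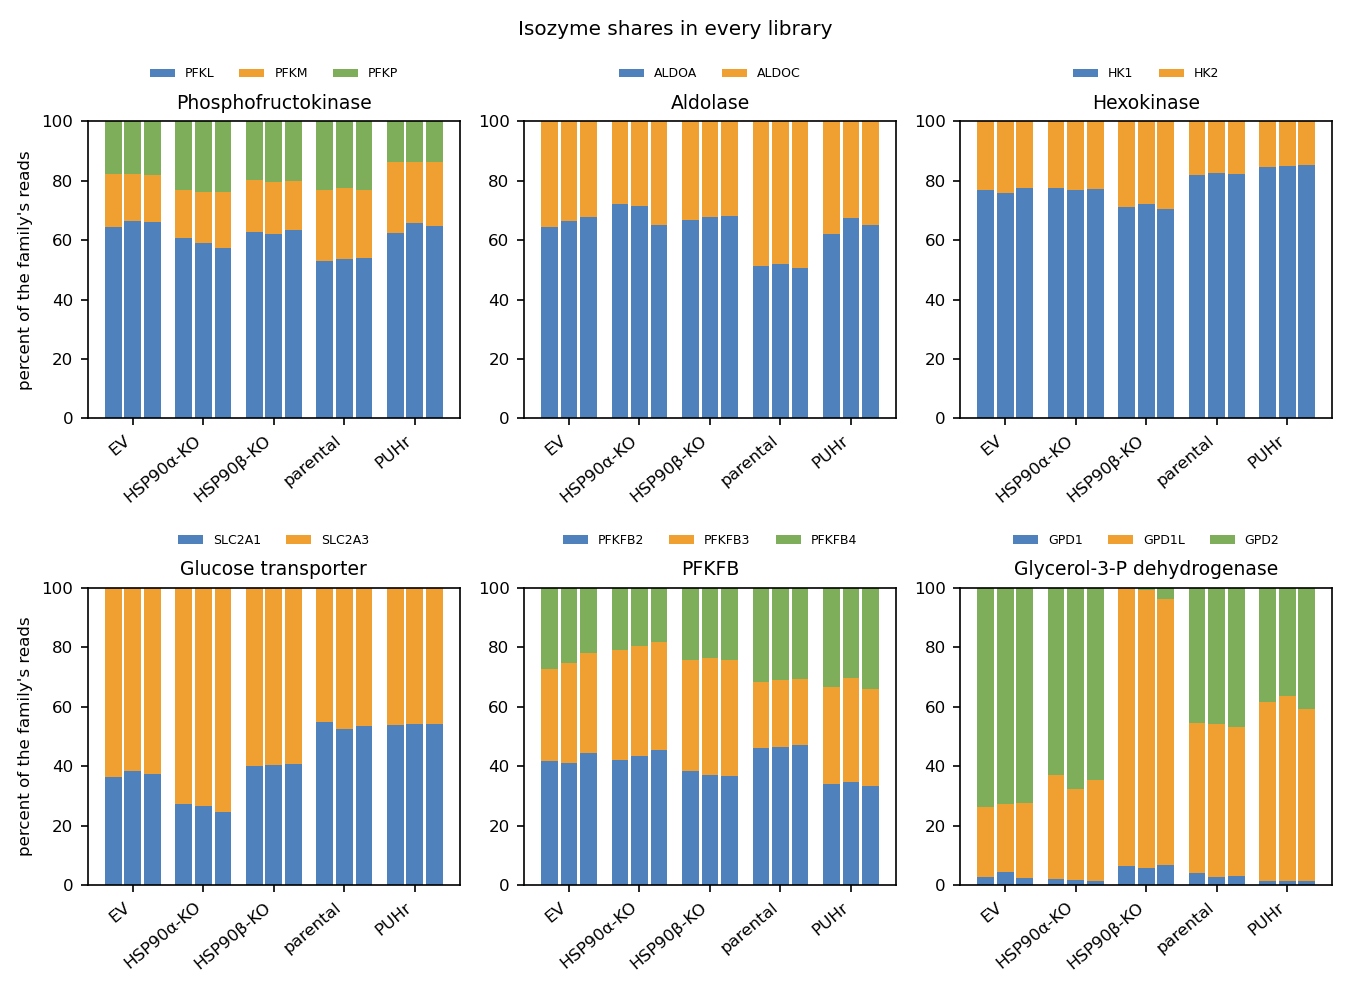
Share of each isozyme gene among the reads of its family, in percent, as 1 stacked bar per library in groups of 3. The PFKP share is 13.5% to 13.8% in PUHr against 22.6% to 23.2% in parental libraries, and the GPD2 share is 0% to 3.65% in HSP90β-KO libraries against 72.3% to 73.9% in EV.

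In the pentose phosphate pathway, 2 of 6 members were higher and 0 lower in HSP90α-KO, 0 higher and 2 lower in HSP90β-KO, and 1 higher and 5 lower in PUHr cells. Among all genes 27.5% and 26.6%, 17.2% and 17.2%, and 25.6% and 25.8% were higher and lower in these comparisons. PGD, an enzyme that yields NADPH, stood at 512, 508 and 508 CPM in parental and 321, 293 and 315 CPM in PUHr libraries. These groups did not overlap (-0.72 ± 0.03, adjusted p = 5.3e-11), and the 79 tested genes within 5 Mb had a median of -0.43. TALDO1, transaldolase, links the pathway back to glycolysis and stood at 371, 365 and 353 CPM in parental and 257, 241 and 259 CPM in PUHr libraries. All PUHr libraries were lower (-0.53 ± 0.03, adjusted p = 1.9e-09), while the genes within 5 Mb had a median of -0.07. The isomerase RPIA (-0.24, not called without the filter on low values, adjusted p = 0.066), the epimerase RPE (-0.12) and TKT, transketolase (-0.11, but -0.04 and not called under quantile normalization, adjusted p = 0.23, nor without the filter on low values or the intensity trend), were also lower in PUHr cells, and PGLS, which hydrolyses the lactone, was higher (0.28).

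In HSP90α-KO cells PGD (0.23) and TKT (0.21) were higher, and PGLS (0.05), RPIA (-0.08), RPE (-0.08) and TALDO1 (0.01) did not pass. In HSP90β-KO cells RPE was lower by -0.46 ± 0.04 (adjusted p = 3.9e-09), beside a median of -0.57 over the 30 tested genes within 5 Mb, and RPIA was lower by -0.18. PGD (0.05), TKT (0.06), PGLS (0.02) and TALDO1 (-0.03) did not pass there.

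**Figure D4:**
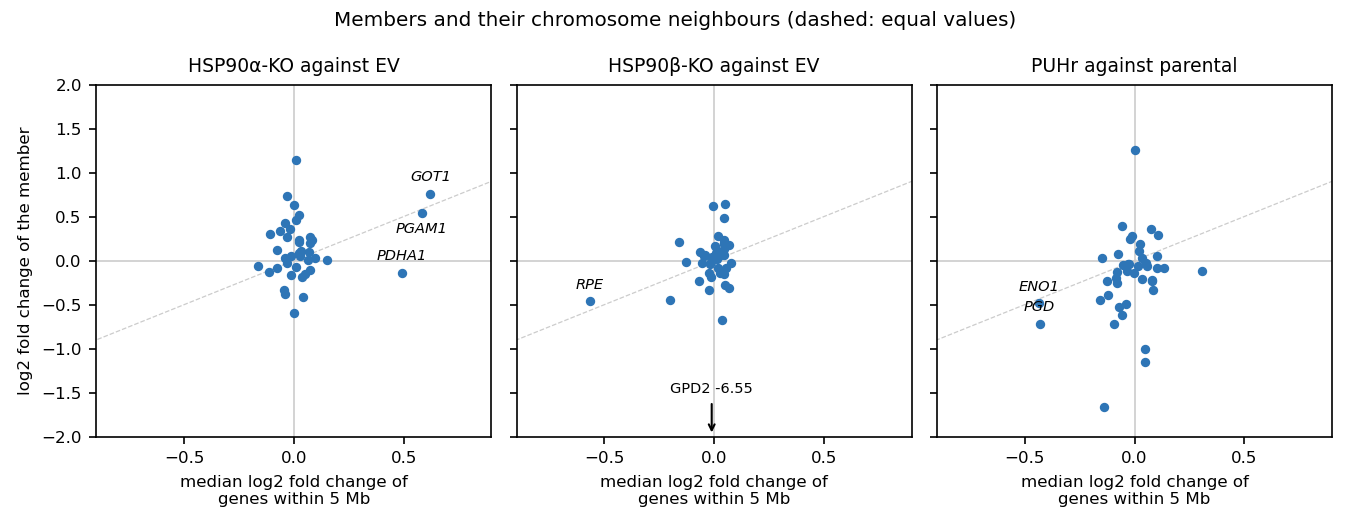
Log2 fold change of each member (vertical axis) against the median of the tested genes within 5 Mb (horizontal axis), 1 panel per comparison. PGAM1 and GOT1 in HSP90α-KO, RPE in HSP90β-KO, and ENO1 and PGD in PUHr cells lie beside neighbours that differ the same way, PDHA1 in HSP90α-KO and PUHr cells lies beside neighbours that differ the other way, and GPD2 in HSP90β-KO cells, beyond the axis at -6.55, beside a median of -0.01.

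The glycerophosphate shuttle pairs a cytosolic dehydrogenase (GPD1, or the related GPD1L) with GPD2, the mitochondrial enzyme that hands electrons to ubiquinone. GPD2 stood at 17.9, 18.1 and 16.2 CPM in the EV libraries and at 0, 0.0853 and 0.317 CPM in the HSP90β-KO libraries, which is 376, 376 and 425 reads against 0, 2 and 8. The transcript was thus nearly absent from all 3 HSP90β-KO libraries. Pooled over libraries, it was at 0.829% of the EV level (95% exact interval 0.397% to 1.53%, counting error only), or 121-fold lower (65.3-fold to 252-fold). The fitted log2 fold change of -6.55 ± 0.28 (adjusted p = 2.6e-16) moves with the prior count chosen and is no bound. The 34 tested genes within 5 Mb had a median of -0.01.

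In HSP90α-KO libraries GPD2 stood at 24.8, 24.0 and 26.3 CPM, all above EV, with a log2 fold change of 0.52 that did not pass in the fit over 9 libraries (SE 0.28, adjusted p = 0.11). The spread of the 3 HSP90β-KO libraries near 0 enters that error, and in a fit of the 6 libraries compared the adjusted p was 5.5e-07. It was also called without HSP90β-KO replicate 1 (adjusted p = 0.013) or 3 (0.0067). In PUHr cells GPD2 was lower by -0.39 ± 0.08 (adjusted p = 5.9e-04, but 0.055 without the filter on low values).

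GPD1L (ENSG00000152642, chr3:32105689-32168709) stood at 5.66, 5.78 and 5.68 CPM in EV, 13.7, 10.8 and 13.9 CPM in HSP90α-KO and 9.11, 9.69 and 7.76 CPM in HSP90β-KO libraries. Both knockouts lay above EV without overlap, by 1.14 ± 0.10 (adjusted p = 3.4e-10) and 0.62 ± 0.10 (adjusted p = 2.4e-05). HSP90α-KO also lay above HSP90β-KO, by 0.52 ± 0.10 (adjusted p = 7.8e-05). GPD1L did not pass in PUHr cells (0.11, adjusted p = 0.11). GPD1 (ENSG00000167588, chr12:50103982-50111313) stood at 1.40, 0.965 and 1.08 CPM in parental and 0.482, 0.460 and 0.445 CPM in PUHr libraries, or 23 to 33 against 10 to 12 reads. It was lower in every PUHr library (-1.15 ± 0.23, adjusted p = 7.2e-04) and did not pass in HSP90α-KO (-0.19) or HSP90β-KO cells (-0.23).

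**Figure D5:**
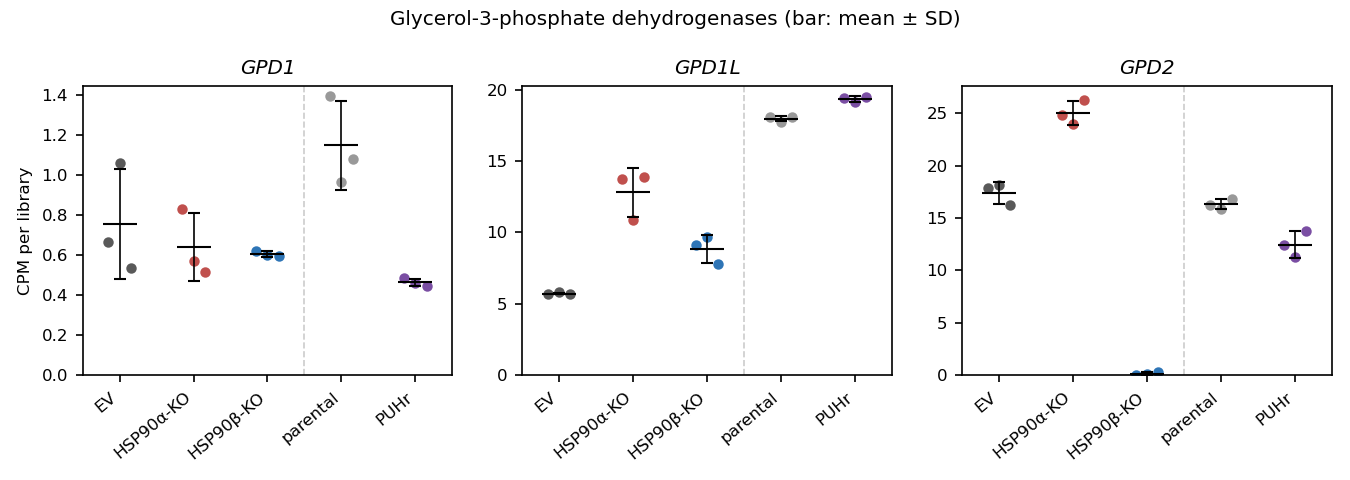
CPM of GPD1, GPD1L and GPD2 in every library, with the mean and SD of 3 libraries as a bar, each panel on its own scale from 0. The dashed line parts the knockout table from the resistance table. GPD2 is at 0 to 0.317 CPM in HSP90β-KO libraries and at 16.2 to 18.1 CPM in EV, and GPD1L is at 10.8 to 13.9 CPM in HSP90α-KO libraries and at 5.66 to 5.78 CPM in EV.

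The malate-aspartate shuttle runs on the cytosolic enzymes MDH1 and GOT1 and the mitochondrial enzymes MDH2 and GOT2. GOT1 stood at 89.2, 83.1 and 86.6 CPM in EV and 142, 148 and 148 CPM in HSP90α-KO libraries. All HSP90α-KO libraries lay above EV (0.76 ± 0.04, adjusted p = 8.5e-16), and the 110 tested genes within 5 Mb on chromosome 10 had a median of 0.62. GOT1 was lower in HSP90β-KO (-0.28) and PUHr cells (-0.21). MDH1 was higher in HSP90β-KO cells (0.17) and did not pass in HSP90α-KO cells (0.03). MDH2 was higher in both knockouts (0.08 and 0.08), in HSP90α-KO cells with overlapping groups and at -0.03 under quantile normalization. Its calls were lost without EV replicate 1 (adjusted p = 0.11 in HSP90α-KO and 0.15 in HSP90β-KO cells), EV replicate 3 (0.052 and 0.078), HSP90α-KO replicate 1 (0.11) or 2 (0.054) or any 1 HSP90β-KO library (0.077 to 0.097). GOT2 did not pass in HSP90α-KO (0.00, and -0.07 under quantile normalization) or HSP90β-KO cells (0.05). In PUHr cells all 4 were lower, beside 25.8% of all genes. MDH1 was lower by -0.14, GOT1 by -0.21, GOT2 by -0.22 and MDH2 by -0.06, the last at 0.01 under quantile normalization and not called without parental replicate 2 (adjusted p = 0.14). The calls of MDH1 and MDH2 there were also lost without the filter on low values (adjusted p = 0.12 and 0.14) or the intensity trend (0.054 and 0.16). Those of MDH2 in the knockouts were lost without the trend (0.12 and 0.16), in HSP90α-KO cells also with only the 6 libraries compared, and in HSP90β-KO cells also with median centring (0.33).

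Other genes of these pathways, from a list of 60 named for their function, gave 12 higher and 14 lower of 39 tested in HSP90α-KO, 16 and 5 of 39 in HSP90β-KO, and 14 and 16 of 40 in PUHr cells, beside 27.5% and 26.6%, 17.2% and 17.2%, and 25.6% and 25.8% of all genes. The changed ones were mostly regulators of pyruvate entry. PDK4, a further pyruvate dehydrogenase kinase, stood at 1.43, 0.916 and 1.45 CPM in EV, 3.08, 4.25 and 3.85 CPM in HSP90α-KO and 3.10, 3.37 and 3.60 CPM in HSP90β-KO libraries, above EV in each (1.51 ± 0.18 and 1.37 ± 0.18). It stood at 1.95, 1.17 and 1.31 CPM in parental and 14.7, 14.1 and 12.5 CPM in PUHr libraries (3.17 ± 0.16, adjusted p = 4.3e-10). PDK2 went from 2.19, 2.12 and 2.44 CPM in EV to 5.96, 5.70 and 5.39 CPM in HSP90α-KO libraries (1.30 ± 0.13). In the resistance table it was at 122, 83 and 101 reads in parental and 1, 0 and 1 reads in PUHr libraries, pooled at 0.631% of the parental level (95% exact interval 0.0761% to 2.30%). PDK2 was thus nearly absent from PUHr cells while PDK3 and PDK4 were higher there. LDHD, a D-lactate dehydrogenase, was at 22, 29 and 22 reads in parental and 2, 7 and 3 in PUHr libraries, pooled 6.30-fold lower (3.40-fold to 12.8-fold). SLC2A6, a glucose transporter family member, was at 0.676, 0.671 and 0.563 CPM in parental and 3.29, 3.18 and 2.31 CPM in PUHr libraries (2.05 ± 0.20, adjusted p = 6.0e-07). The part that the differences of the genes within 5 Mb had in the values of PGAM1, GOT1, RPE, ENO1 and PGD was not tested.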

How the data were processed

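RNA-seq libraries of K562 cells (3 EV, 3 HSP90α-KO, 3 HSP90β-KO, 3 parental and 3 PUHr) were grouped by their labels. Trimmed reads were mapped by the authors to GRCh38 with STAR, assigned to genes with featureCounts and scaled with edgeR (the submitters' processing notes also name FastQC and MultiQC; versions and annotation release are not given in the sources used here). The values deposited by the authors are log2 CPM with a prior count. The parental columns spell the solvent DSMO, read as DMSO. CPM and whole reads were recovered from the steps of the values (largest deviation from a whole read 1.7e-06 below 5000 reads). Reads in entries without an identifier, 0.0270% to 0.0363% of a library, were left out. The filter behind the smaller knockout table is not given in the sources used here.

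The deposited log2 CPM were tested with limma 3.58.1 (R 4.3.3), with an intensity trend and a shared spread over the 9 or 6 libraries of a table, keeping genes that reached a log2 CPM of -1 in 3 or more libraries, with Benjamini-Hochberg adjustment over all tested genes. The code was tested on simulated data. Positions and exon lengths came from GENCODE release 44 on GRCh38. Intervals of read ratios are exact and cover counting error only. Members called (adjusted p under 0.05) and beyond 0.5 on the log2 scale are given in every library, and genes of the further list where changed, except 1 that is not reported here. The members and lists were chosen with earlier results of these data known. Alternatives were other filters, pseudocounts, quantile normalization, median centring, no trend, voom, a replicate block, the 6 libraries compared only, and each library left out. Depth was 19594381 to 26216730 reads on genes, so 3 reads equal 0.114 to 0.155 CPM.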

Additional observations from a re-analysis of the deposited data

How the results depend on the processing

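Of 2181 member values under alternatives, 2062 stayed on the same side of the threshold, 83 lost and 31 gained a call, and 5 changed sign with a call in either fit. Of those 2062, 31 values of 16 members changed sign without a call in either fit, 5 with quantile normalization, 4 with median centring and 22 with 1 library left out, and none of them was beyond 0.233 as reported. Other filters, no trend, the replicate block and the 6 libraries compared alone could move a call but not a fold change. The same holds for leaving out a library of a group not compared. Of the members called, 18 of 27 in HSP90α-KO, 20 of 24 in HSP90β-KO and 20 of 31 in PUHr cells were called under every alternative. The 5 sign changes with a call came with quantile normalization: in HSP90α-KO cells MDH2 at -0.0311 and GOT2 at -0.0723, and in PUHr cells PKM at 0.123, LDHA at 0.147 and MDH2 at 0.0121. The median over the members was then 0.0317, 0.0269 and -0.0506 in HSP90α-KO, HSP90β-KO and PUHr cells, with median centring -0.00544 in HSP90β-KO and -0.160 in PUHr cells, and with a filter on the mean (log2 CPM at least 1) 0.0469 in HSP90β-KO cells. With 1 library left out it ranged from 0.0640 to 0.107, 0.0143 to 0.0483 and -0.126 to -0.0907. Changed genes among all numbered 1760, 764 and 1660, and 717, 272 and 751 with the filter on the mean, 823, 289 and 941 with a pseudocount of 1 CPM, and 346, 90 and 385 with 5 CPM, and between 1541 and 1729, 706 and 742, and 1371 and 1484 with 1 library left out. Changed members in PUHr cells were 2 with the stricter filter, which drops PDK3 and GPD1, and 1, PKLR, with either pseudocount, and 0 in HSP90α-KO cells with 5 CPM, since a pseudocount shrinks the fold change of low genes. They were 3 to 4 in PUHr cells with 1 library left out. Deviations of same-numbered libraries correlated between -0.048 and 0.045, and those of libraries with different numbers between -0.061 and 0.0636. No shared effect of the number was thus seen. With deviations from means of 3 libraries, this cannot tell whether the numbers pair the libraries. With a replicate block 25, 24 and 31 members were called, against 27, 24 and 31, and 1759, 763 and 1662 genes were changed. Calls were lost with quantile normalization for PFKM, ENO1 and LDHA in HSP90α-KO, PGAM1 in HSP90β-KO and TPI1, GAPDH, ENO1 and TKT in PUHr cells, and with median centring for PFKM in HSP90α-KO and GPI, PGAM1, PKM and MDH2 in HSP90β-KO cells. MDH2, counted above among the sign changes, also lost its calls in HSP90α-KO and PUHr cells with quantile normalization. Without the intensity trend they were lost for GPI, PFKL, PFKM, PDK1 and MDH2 in HSP90α-KO, GPI, PGAM1, PKM and MDH2 in HSP90β-KO and TPI1, PKM, PDHA1, TKT, MDH1 and MDH2 in PUHr cells. Without the filter on low values they were lost for PFKM in HSP90α-KO and ALDOA, TPI1, PKM, PDHA1, RPIA, TKT, GPD2, MDH1 and MDH2 in PUHr cells, and in HSP90α-KO cells with only the 6 libraries compared for PFKL, PFKM, ENO2 and MDH2, with voom for ENO2 and with the replicate block for PFKM and ENO2. Leaving out 1 library removed the call of 5, 4 and 2 members and gave a call to 3, 1 and 0. Members under 5 CPM rest on few reads a library, which limits the precision of GPD1, PDK3, SLC16A3 and PKLR.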
